A study of Mus musculus with 2 samples.

Results

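This is an account of 44 genes of central carbon metabolism in mouse embryonic stem cells (mESCs) that lost AIMP3, an auxiliary protein of the multi-tRNA synthetase complex. The rule takes genes by their place in the pathways and uses no measured value, although it was set with earlier results of these data known, and their probes were found through the RefSeq accession on the array. They comprise 25 genes of glucose uptake and glycolysis, 7 genes of pyruvate dehydrogenase and its control, 4 genes of the pentose phosphate pathway and 8 genes of the citrate cycle. All 44 were among the 24022 genes that could be tested. The cells carried loxP-flanked AIMP3 alleles and the tamoxifen-inducible recombinase Cre-ERT2, and both were present in the control cells too. AIMP3-depleted cells (2 replicates) were treated with 2 μM tamoxifen for 4 days in medium with LIF, and control cells received ethanol, so that effects of the drug or of Cre activation itself cannot be told apart from those of AIMP3 loss. Each array compared 1 AIMP3-depleted replicate, in the Cy5 channel, with the same pool of RNA from 2 control cultures, in the Cy3 channel, so that there was 1 control sample. Per the labels, the cells were generally kept on feeder layers of mouse embryonic fibroblasts, while the methods name medium conditioned by such fibroblasts for incubation with drugs. Whether feeder cells were present during the treatment is not given in the sources used here.

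In glycolysis, glucose enters through facilitative transporters, is trapped by hexokinase and is cleaved to pyruvate, with phosphofructokinase as the main point of control. Pyruvate becomes lactate through lactate dehydrogenase or enters the citrate cycle through pyruvate dehydrogenase, which the pyruvate dehydrogenase kinases switch off. The pentose phosphate pathway branches off at glucose 6-phosphate and provides NADPH and ribose for nucleotides. Pluripotent cells are known for a high rate of glycolysis. Many glycolytic genes, *Slc2a1*, *Aldoc*, *Pfkfb3* and *Pdk1* among them, are textbook targets of the hypoxia-inducible factors (HIF), which bind the core letters ACGTG or GCGTG.

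Values are log2 ratios of AIMP3-depleted over control after loess normalization, so that a negative value is a lower level in AIMP3-depleted cells. The study's methods write the ratio as control over test, which has the opposite sign. *Eef1e1*, the gene of AIMP3, had a log2 ratio of -0.90 on both arrays, with normalized signals of 2452.7 and 2415.3 in AIMP3-depleted cells against 4591.3 and 4491.9 in the control pool (adjusted p = 5.08e-05 by limma). Whether its probe lies in the deleted part of the gene is not given in the sources used here. A gene was called raised or lowered past 1.5-fold with an unadjusted limma p under 0.05, and adjusted p-values are by Benjamini-Hochberg over all tested genes. Since no source says that the replicates were separate cultures, the p-values measure the spread between these samples, which may be technical. The test also leaves out the spread between control cultures, and because the dyes were not swapped, a gene-specific dye difference cannot be told apart from the treatment. In bulk RNA, fewer cells of a type and less RNA per cell cannot be told apart. Embryonic stem cell markers were well above background in all channels for 10 of 10 genes. In the AIMP3-depleted cells, primitive endoderm markers were called raised in 10 of 10 genes (median log2 ratio 1.16) and fibroblast markers in 10 of 13 tested genes (median 0.81). Stem cell markers were called lowered in 1 of 10 genes (*Tdgf1*, -0.59) with a median of -0.22. Of all tested genes, 5.52% were called raised and 0.791% lowered. At an adjusted limma p under 0.05 and any fold, 6 stem cell markers (60%) were lower and 3 (30%) higher. Those shares stand against 23.7% and 30.6% of all tested genes. The summed normalized signal in AIMP3-depleted against control cells was 306024 against 132842 (replicate 1) and 317047 against 142284 (replicate 2) for the endoderm list. It was 185938 against 112962 and 182709 against 113187 for the fibroblast list, and 296229 against 263244 and 302536 against 273521 for the stem cell list, in which the summed signal and the median ratio have opposite signs. A single bright gene gave the largest part of each sum. In replicate 1 these were *Sparc* (205553.7 against 85297.6, endoderm), *Fn1* (99930.1 against 72556.9, fibroblast) and *Dppa5a* (186105.5 against 130105.6, stem cell). The sums are therefore no measure of the amount of a cell type. None of these tested markers was below background in a channel, and *Lum*, a fibroblast marker, had no probe that could be tested. The part of these other cell types in the results that follow was not tested.

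Promoters of 4 members that were called changed are shown first, because these are known HIF targets. Those of the other called members, *Pfkp* and *Ldhb*, are not shown. The windows are those of RefSeq on GRCm38.p6, from 250 bases before to 50 bases after a transcript start, with ACGTG and GCGTG in capitals on either strand (CACGT and CACGC are the same letters read on the other strand). The 4 windows were chosen after the values were seen, as those of the known HIF targets named above, and where a gene had several windows the one with the most core letters is given.
Slc2a1, chr4:119108495-119108794, plus strand, raised: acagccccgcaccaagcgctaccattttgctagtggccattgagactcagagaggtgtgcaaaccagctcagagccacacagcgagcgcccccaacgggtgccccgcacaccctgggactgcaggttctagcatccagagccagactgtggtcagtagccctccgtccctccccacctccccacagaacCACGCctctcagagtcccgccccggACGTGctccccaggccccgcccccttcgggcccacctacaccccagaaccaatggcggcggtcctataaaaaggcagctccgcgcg
Pfkfb3, chr2:11502041-11502340, minus strand, raised: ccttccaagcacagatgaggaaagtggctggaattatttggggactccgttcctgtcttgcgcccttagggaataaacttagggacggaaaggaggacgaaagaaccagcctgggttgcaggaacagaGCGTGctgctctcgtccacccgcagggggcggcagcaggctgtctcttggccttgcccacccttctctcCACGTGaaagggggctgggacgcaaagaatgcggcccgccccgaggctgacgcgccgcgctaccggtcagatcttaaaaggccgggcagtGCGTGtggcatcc
Aldoc, chr11:78322823-78323122, plus strand, lowered: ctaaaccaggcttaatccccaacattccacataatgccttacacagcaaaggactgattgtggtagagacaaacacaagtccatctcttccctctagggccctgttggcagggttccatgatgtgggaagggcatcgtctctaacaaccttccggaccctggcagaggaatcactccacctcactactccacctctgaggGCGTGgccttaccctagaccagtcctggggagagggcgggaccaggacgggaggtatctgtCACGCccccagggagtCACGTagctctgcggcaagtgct
Pdk1, chr2:71872974-71873273, plus strand, lowered: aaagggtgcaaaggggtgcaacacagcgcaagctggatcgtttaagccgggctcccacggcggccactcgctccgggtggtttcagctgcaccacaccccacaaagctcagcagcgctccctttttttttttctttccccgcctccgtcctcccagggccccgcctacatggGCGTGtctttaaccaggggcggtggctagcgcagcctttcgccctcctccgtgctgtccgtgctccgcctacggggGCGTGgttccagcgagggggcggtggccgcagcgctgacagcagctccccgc
The *Slc2a1* window holds 2 core matches, the *Pfkfb3* window 4, the *Aldoc* window 3 and the *Pdk1* window 2. Since these windows were chosen as described, core letters in them are no result. The *Pdk1* window that is not shown holds 0. In the *Pfkfb3* window a match is the palindrome CACGTG (the E-box), which is counted as ACGTG on each strand. Promoter windows were found for 42 of the 44 members, 14 of them with more than 1 window, and 53 of these 65 windows (81.5%) held ACGTG or GCGTG. Of all 32851 windows in the table, 43.8% did. The members' windows were also richer in G and C, with a median of 60.7% against 52.7%, and the core letters themselves are rich in G and C. ACGTG stood in 3 of 3 windows of raised members and 1 of 6 windows of lowered members, and in 26 of 56 windows (46.4%) of members that were not called. GCGTG stood in 2 of 3, 5 of 6 and 33 of 56 (58.9%) of them. With so few windows these counts are a description, and a match is not a binding site.

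Among the 44 members, 2 were called raised (*Slc2a1* and *Pfkfb3*) and 4 were called lowered (*Pfkp*, *Aldoc*, *Ldhb* and *Pdk1*). Those 6 stand against 6.32% of all tested genes called in either direction. The raised share was 4.55%, against 5.52% of all tested genes, and the lowered share was 9.09%, against 0.791% of all tested genes. At an adjusted limma p under 0.05 and any fold, 11 members (25%) were higher and 20 (45.5%) were lower, against 30.6% and 23.7% of all tested genes. With the scanner software's processed signals these counts were 6 and 20. For this and the other alternative settings, the matching shares of all tested genes at an adjusted p were not counted. Median centring in place of loess gave 25 members higher and 7 lower than 0, but it raised the median of all tested genes from 0.02 to 0.18, and 22 members lay above that median and 22 below it. After loess 17 lay above the median of all genes and 27 below it. After loess the raised share was therefore near the background and the lowered share was above it, with changes that stayed under 2-fold. The median log2 ratio of the members was -0.08, with -0.09 in replicate 1 and -0.08 in replicate 2, against 0.02 over all tested genes. The members were bright, and 37 of 44 lay above the median intensity of the tested genes.

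**Figure D1:**
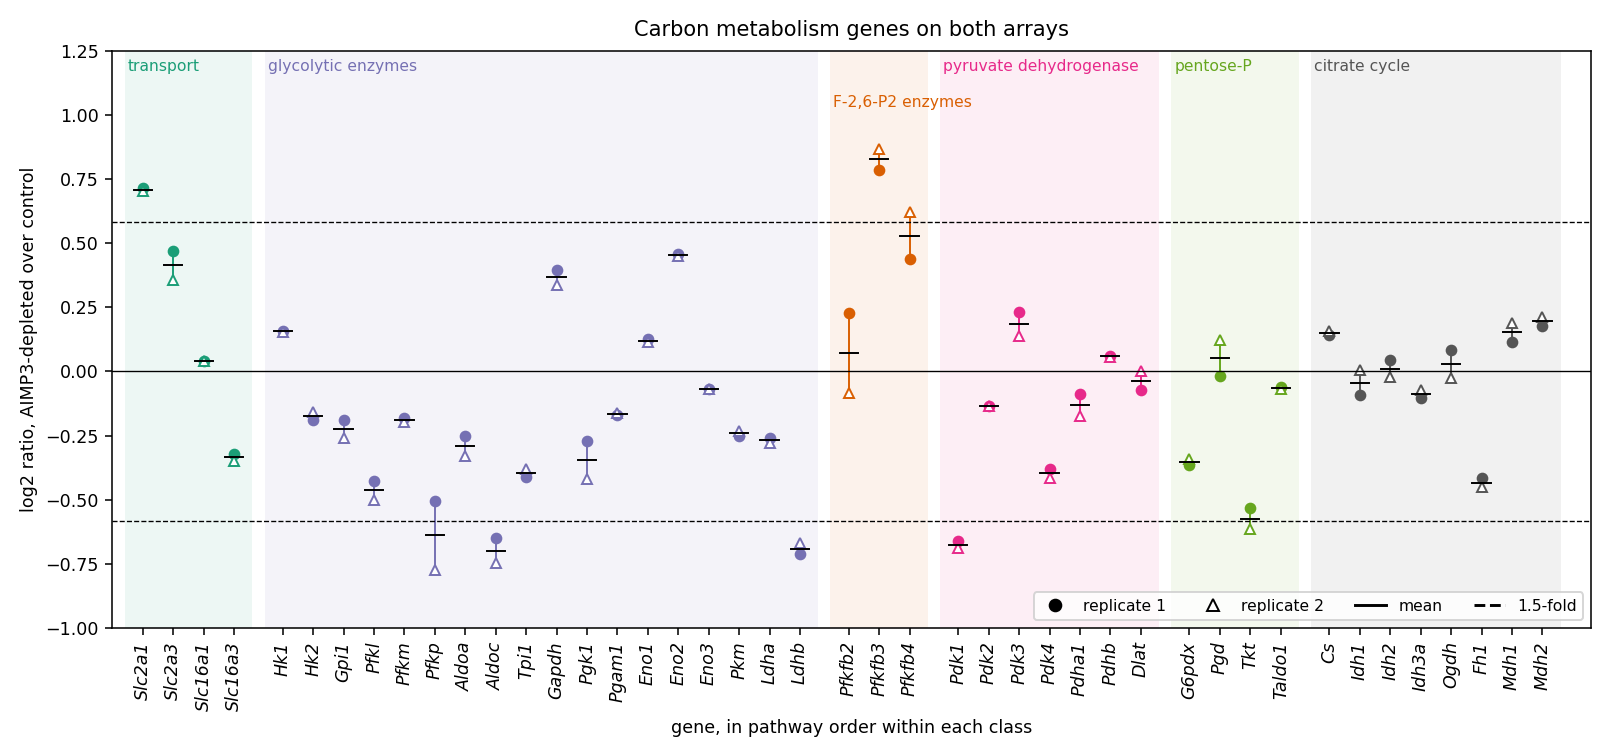
Log2 ratio of AIMP3-depleted over control (vertical axis) for each of the 44 members (horizontal axis, in pathway order within each class). Filled circles are replicate 1, open triangles replicate 2, black bars the mean of both, and dashed lines mark 1.5-fold. F-2,6-P2 stands for fructose 2,6-bisphosphate and pentose-P for the pentose phosphate pathway. Most glycolytic enzymes lie below 0, while 2 transporters and 2 of the 3 Pfkfb genes lie above 0.3 on both arrays.

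At the entry of glucose, 1 of the 4 transporter genes was called raised (25%, against 5.52% of all tested genes). *Slc2a1* encodes GLUT1, the main glucose carrier of most growing cells. Its normalized signals were 144813.3 and 146891.2 in AIMP3-depleted cells against 88214 and 90188.3 in the control, and its log2 ratio was 0.71 ± 0.008 (SD over n = 2 arrays, limma adjusted p = 8.93e-05). Both AIMP3-depleted values lay above both readings of the control pool. This call depended on the dye normalization, with 0.53 from the scanner software's processed signals and 0.57 in the deposited table, both under 1.5-fold. *Slc2a3*, the gene of GLUT3, a high-affinity carrier, had 0.47 and 0.36 on the arrays (limma adjusted p = 0.000828) and did not reach 1.5-fold. Of the lactate carriers, *Slc16a1* was at 0.04 and *Slc16a3*, which exports lactate, was at -0.33 (adjusted p = 0.00126 by limma, under 1.5-fold).

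Of the 18 genes of glycolytic enzymes from hexokinase to lactate dehydrogenase, 3 were called lowered (16.7%, against 0.791% of all tested genes) and 0 were called raised (against 5.52%). At any fold, 13 (72.2%) had a lower level with an adjusted limma p under 0.05 and 3 (16.7%) a higher level, against 23.7% and 30.6% of all tested genes, and 14 had a negative ratio. Their median log2 ratio was -0.23, with -0.22 and -0.25 on the arrays. The sign of this median turned with the dye normalization. Median centring in place of loess put it at 0.17, with 13 of 18 positive. At an adjusted limma p under 0.05, 10 were then higher and 4 lower, though p-values under that setting take no account of a gene's own spread. Median centring also moved the median of all tested genes from 0.02 to 0.18. Relative to that median the list was at -0.01, with 10 of 18 genes below it. Relative to the median of all genes it was -0.25 after loess and -0.23 with the processed signals. The lower level of the list as a whole therefore rests on a normalization that follows brightness.

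*Aldoc* encodes aldolase C, an isoform of the enzyme that splits fructose 1,6-bisphosphate. Its normalized signals were 5707.6 and 5122.6 in AIMP3-depleted cells against 8961.8 and 8597.9 in the control. Its log2 ratio of -0.70 ± 0.068 (SD over n = 2 arrays, limma adjusted p = 0.000123) was the lowest of the 44 members after loess, though it differed from those of *Ldhb* and *Pdk1* by less than the spread between its own arrays. *Aldoa*, the main isoform, was at -0.29 (replicates -0.25 and -0.33) and was not called.

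*Ldhb* encodes the H subunit of lactate dehydrogenase, which favours the conversion of lactate to pyruvate. Its normalized signals were 11349.4 and 11290.6 in AIMP3-depleted cells against 18610.1 and 17950.7 in the control, with a log2 ratio of -0.69 ± 0.032 (SD over n = 2 arrays, limma adjusted p = 0.000101). *Ldha*, the M subunit that favours lactate, was at -0.27 with its brightest probe and was not called. The dimmer probes of *Ldha* gave -0.57 and -0.59, so after loess its size depended on the probe while its sign was the same for all 3. With the processed signals the probes were closer, at -0.52, -0.52 and -0.67 in order of falling brightness. With median centring the brightest probe turned to 0.25 and the others stayed at -0.25 and -0.36.

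The 3 phosphofructokinase genes, which encode the liver, muscle and platelet subunits of the committed step, were all negative. *Pfkp* had normalized signals of 1911.7 and 1554.6 in AIMP3-depleted cells against 2712.3 and 2660.9 in the control, and its log2 ratio was -0.64 ± 0.19 (SD over n = 2 arrays, limma adjusted p = 0.000609). The arrays differed, with -0.50 for replicate 1, which is under 1.5-fold, and -0.78 for replicate 2. The other tested probe of *Pfkp* gave -0.25 after loess, and the mean of both probes (-0.44) was not called. That probe was dim (mean log2 intensity 7.54), and with the processed signals it gave -0.63, against -0.70 for the brighter probe. *Pfkl* was at -0.46 (replicates -0.43 and -0.50) and *Pfkm* at -0.19 (replicates -0.18 and -0.20), neither past 1.5-fold. The *Pfkm* probe stands in 10 spots on each array, which ranged from -0.22 to -0.13 in replicate 1 and from -0.26 to -0.13 in replicate 2.

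The other enzymes stayed under 1.5-fold. Triose phosphate isomerase (*Tpi1*) was at -0.39, phosphoglycerate kinase (*Pgk1*) at -0.35, pyruvate kinase (*Pkm*) at -0.24, glucose phosphate isomerase (*Gpi1*) at -0.22 and phosphoglycerate mutase (*Pgam1*) at -0.17, each with an adjusted limma p under 0.05 after loess. With median centring *Pgk1*, *Pkm*, *Gpi1* and *Pgam1* were positive, at 0.09, 0.18, 0.24 and 0.31, and *Tpi1* was at -0.04. Relative to the median of all tested genes under that setting, *Tpi1* was at -0.22, *Pgk1* at -0.09 and *Pkm* at -0.0026, and *Gpi1* and *Pgam1* lay above it, at 0.06 and 0.13. The hexokinases had opposite signs, with *Hk1* at 0.16 and *Hk2*, the isoform of proliferating and insulin-sensitive cells, at -0.17, and the dimmer probe of *Hk1* gave -0.09. Among the enolases, *Eno2*, the isoform of neurons, had 0.46 and 0.45 on the arrays (limma adjusted p = 0.000391), *Eno1* was at 0.12 and *Eno3* at -0.07. *Eno1* turned to -0.09 with the processed signals and to -0.05 in the deposited table.

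*Gapdh*, the glyceraldehyde 3-phosphate dehydrogenase gene that the study used as the reference in qRT-PCR, had no settled direction. Its brightest probe gave 0.40 and 0.34 on the arrays (mean 0.37, adjusted p = 0.000967 by limma). In order of falling brightness its other 6 probes gave 0.17, -0.01, -0.05, -0.17, -0.29 and -0.29, so that 2 of 7 were positive. With the processed signals 1 of 7 was positive and the brightest probe was at 0.06, while with median centring all 7 were positive. The 283 tested genes with a mean log2 intensity above 17, the brightest on the array, had a median ratio of 0.38 after loess, against 0.07 for the 537 genes between 16 and 17 and -0.07 for the 1537 genes between 14 and 16. *Gapdh*, *Eno1*, *Aldoa* and *Ldha* are in the brightest class, where *Aldoa* and *Ldha* lay below 0 against this median. *Slc2a1* and *Slc2a3* are in the class between 16 and 17.

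**Figure D2:**
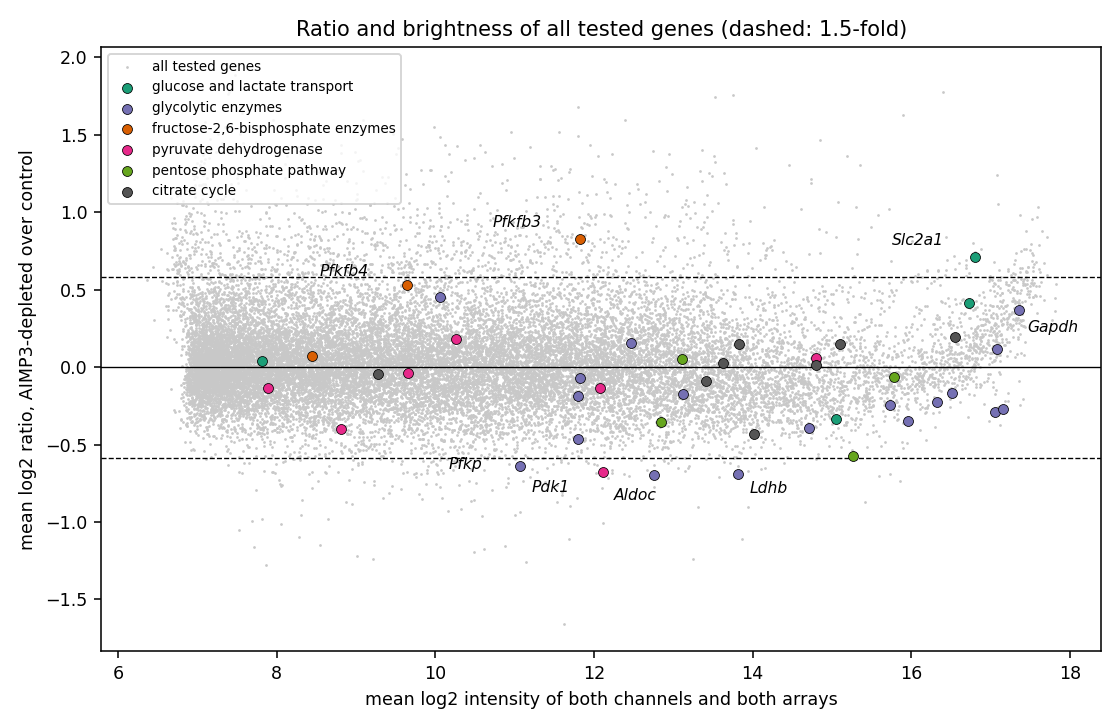
Mean log2 ratio of AIMP3-depleted over control (vertical axis) against mean log2 intensity over both channels and arrays (horizontal axis). Grey points are all 24022 tested genes, coloured points the 44 members by class, and dashed lines mark 1.5-fold. Above an intensity of 17 the grey points bend upward, to a median of 0.38, and *Gapdh* lies within them.

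**Figure D3:**
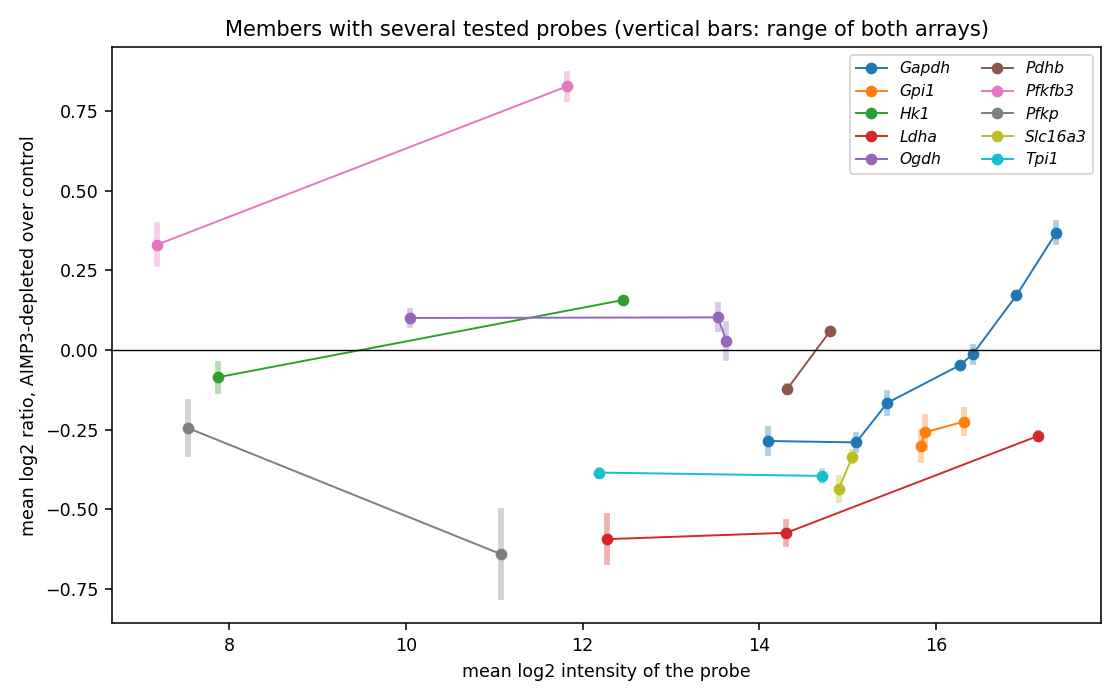
Mean log2 ratio (vertical axis) of every tested probe of the 10 members with several tested probes, against the mean log2 intensity of the probe (horizontal axis). Lines join probes of 1 gene, and pale vertical bars span both arrays. *Gapdh* passes from -0.29 at its dim probes to 0.37 at its brightest, while *Tpi1* has nearly the same ratio at both of its probes.

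Several members have more than 1 tested probe (10 of 44), and in 3 of them, *Gapdh*, *Hk1* and *Pdhb*, the probes differed in sign. For the others the size could differ after loess, as for *Pfkp* and *Ldha* above. The remaining 34 members rest on 1 tested probe.

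The Pfkfb genes encode the bifunctional enzymes that make and break fructose 2,6-bisphosphate, the strongest activator of phosphofructokinase. *Pfkfb3*, the isoform with the highest kinase activity, had normalized signals of 4928.1 and 4721.8 in AIMP3-depleted cells against 2855.2 and 2587.1 in the control. Its log2 ratio of 0.83 ± 0.057 (SD over n = 2 arrays, limma adjusted p = 6.93e-05) was the highest of the 44 members by their brightest probes after loess, while *Slc2a1* was higher with median centring (1.20 against 1.05). Its dimmer probe, which stands for another transcript accession, gave 0.33 after loess, and the mean of both probes (0.58) was just under 1.5-fold. That probe was dim (mean log2 intensity 7.19), and with the processed signals it gave 0.63, against 0.80 for the brighter probe. *Pfkfb4* was at 0.53, with 0.44 and 0.62 on the arrays (limma adjusted p = 0.000602), just short of the threshold. *Pfkfb2* had opposite signs on the arrays, 0.23 and -0.08. All 3 genes kept a positive mean under each dye normalization tried. The genes of this regulator and of its target enzyme thus had opposite signs on average, with 3 of 3 Pfkfb genes positive and 3 of 3 phosphofructokinase genes negative after loess. *Pfkm* was at 0.03 with median centring, which is -0.15 relative to the median of all tested genes.

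In the control of pyruvate dehydrogenase, *Pdk1* was the member called. It encodes a kinase that inactivates the complex. Its normalized signals were 3732.8 and 3313.1 in AIMP3-depleted cells against 5903.9 and 5342 in the control, with a log2 ratio of -0.68 ± 0.02 (SD over n = 2 arrays, limma adjusted p = 0.000105). The other kinases did not reach 1.5-fold, with *Pdk4* at -0.40 (adjusted p = 0.000664 by limma), *Pdk2* at -0.14 and *Pdk3* at 0.18, the highest of this class (replicates 0.23 and 0.14). The genes of the complex itself were close to 0. Those of the E1 subunits, *Pdha1* and *Pdhb*, were at -0.13 and 0.06, and that of the E2 subunit, *Dlat*, was at -0.04, none with an adjusted limma p under 0.05. The 7 genes had a median of -0.13 after loess, with 1 called lowered (14.3%, against 0.791% of all tested genes). With median centring the median was 0.09 and *Pdk1*, at -0.45, was not called, but relative to the median of all tested genes they were at -0.09 and -0.63.

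In the pentose phosphate pathway none of the 4 genes was called, against 6.32% of all tested genes in either direction. For so few genes that is near the share of all genes. The median was -0.21 after loess and 0.10 with median centring, where it was -0.08 relative to the median of all tested genes. *Tkt*, which encodes transketolase of the non-oxidative branch, was the lowest at -0.57 ± 0.058 (SD over n = 2 arrays, limma adjusted p = 0.000215). Its normalized signals were 34416.2 and 30397.5 in AIMP3-depleted cells against 49812.4 and 46549.4 in the control. It lay just short of the fold threshold on average, with -0.53 for replicate 1 and -0.61 for replicate 2, past 1.5-fold on the latter only. *G6pdx*, the gene of the rate-limiting glucose 6-phosphate dehydrogenase, was at -0.35 (replicates -0.36 and -0.34, adjusted p = 0.00102 by limma). *Pgd*, the dehydrogenase that follows it, had -0.02 and 0.12 on the arrays, and *Taldo1*, the transaldolase, was at -0.06.

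The 8 genes of the citrate cycle had a median of 0.02, equal to that of all tested genes to 2 decimals. None was called, against 6.32% of all tested genes in either direction, which for 8 genes is near that share. *Fh1*, the fumarase gene, was the lowest at -0.43 ± 0.025 (SD over n = 2 arrays, limma adjusted p = 0.000489), with -0.42 and -0.45 on the arrays. *Mdh2*, the mitochondrial malate dehydrogenase that acts on the product of fumarase, was the highest at 0.20 ± 0.024 (SD over n = 2 arrays, limma adjusted p = 0.0108). *Cs*, the citrate synthase, and *Mdh1*, the cytosolic malate dehydrogenase, were both at 0.15, with adjusted limma p under 0.05. The isocitrate dehydrogenase genes *Idh1*, *Idh2* and *Idh3a* lay between -0.09 and 0.01 and *Ogdh*, of the oxoglutarate dehydrogenase complex, was at 0.03, each smaller than the call and without an adjusted p under 0.05. At an adjusted limma p under 0.05, *Fh1* was the single gene of these 8 with a lower level after loess (12.5%, against 23.7% of all tested genes). Of the 8, 3 genes had a higher level (37.5%, against 30.6%). These counts depended on the settings, with 1 lower and 1 higher with the processed signals, in the deposited table or without the filter on dim probes, and 0 lower and 6 higher with median centring, which also raised the median of all tested genes. Of 17 other genes listed with the cycle, 7 (41.2%) were lower and 4 (23.5%) higher at an adjusted limma p under 0.05 after loess.

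Set side by side, the median log2 ratios of the classes were -0.17 for glucose uptake and glycolysis (25 genes), -0.13 for pyruvate dehydrogenase (7), -0.21 for the pentose phosphate pathway (4) and 0.02 for the citrate cycle (8). On the arrays these medians were -0.18 and -0.16, -0.09 and -0.13, -0.21 and -0.20, and 0.06 and -0.01. The 3 negative medians turned positive with median centring, to 0.21, 0.09 and 0.10, and the citrate cycle was at 0.34, while the median of all tested genes was 0.18. Relative to that median the classes were at 0.03, -0.09, -0.08 and 0.16. The differences between the classes were not tested, since genes are not replicates.

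**Figure D4:**
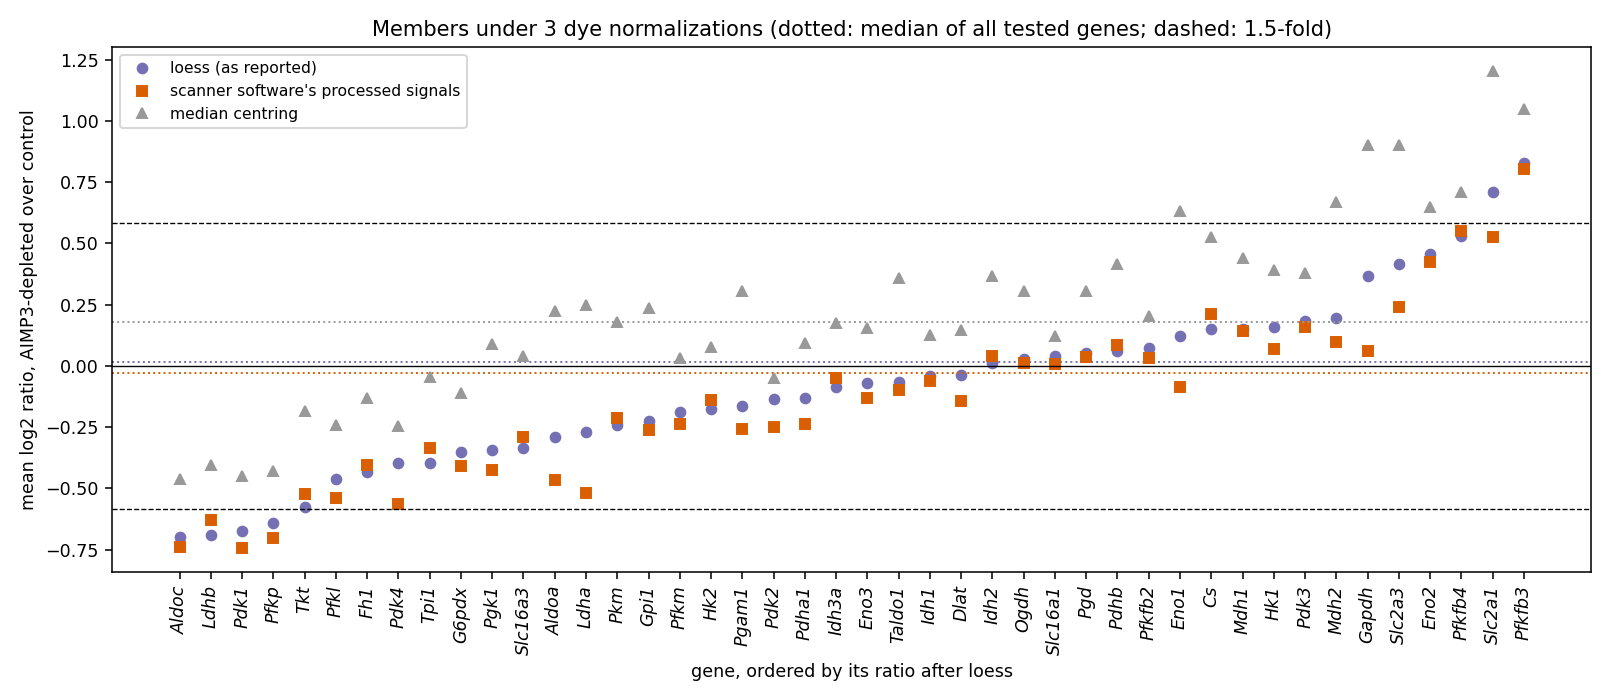
Mean log2 ratio of AIMP3-depleted over control (vertical axis) of the 44 members, ordered by their ratio after loess (horizontal axis), under loess (circles), the scanner software's processed signals (squares) and median centring (triangles). Dotted lines are the medians of all tested genes under each (0.02, -0.03 and 0.18) and dashed lines mark 1.5-fold. *Aldoc*, *Ldhb*, *Pdk1* and *Pfkp* are the lowest under loess and stay below 0 under all 3, and *Pfkfb3* stays above 1.5-fold.

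The calls depended on the dye normalization. The 4 lowered members had ratios between -0.46 and -0.40 under median centring, which left 0 members called lowered against 0. Relative to the median of all tested genes under that setting they were at -0.64 (*Aldoc*), -0.63 (*Pdk1*), -0.61 (*Pfkp*) and -0.58 (*Ldhb*), against -0.71, -0.69, -0.66 and -0.71 after loess. With median centring *Slc2a3*, *Gapdh*, *Eno1*, *Eno2*, *Pfkfb4* and *Mdh2* passed the threshold for a rise above 0, 8 members in all with *Slc2a1* and *Pfkfb3*. Relative to the median of all tested genes, *Eno1* (0.45), *Eno2* (0.47), *Mdh2* (0.49) and *Pfkfb4* (0.53) were under 1.5-fold there. *Slc2a3* and *Gapdh* (both 0.72), *Pfkfb3* (0.87) and *Slc2a1* (1.02) were past it. Over all 24022 tested genes that setting called 65 lowered and 2823 raised. With the processed signals the same 4 members were called lowered and *Pfkfb3* was the 1 member called raised, while 776 of all tested genes were called lowered and 1944 raised, so that the background was higher too.

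Other genes of the same pathways, taken from lists of 53 genes of which 46 could be tested, were called raised in 3 cases (6.52%, against 5.52% of all tested genes) and lowered in 1 (2.17%, against 0.791%), with a median of -0.03. *Hkdc1*, which encodes a hexokinase domain protein, was raised at 1.30 ± 0.076 (SD over n = 2 arrays, limma adjusted p = 3.53e-05). *Me1*, the cytosolic malic enzyme that yields NADPH, was raised at 0.80, with 0.72 and 0.88 on the arrays (limma adjusted p = 0.000116). *Gapdhs*, the sperm isoform of *Gapdh*, was called raised but was not well above background in the control on either array, which puts it at least 1.59-fold higher (adjusted p = 0.000184 by limma); this bound takes the higher of its own control signal and the lowest signal well above background there, and is open to dye bias. *Prps1*, which makes phosphoribosyl pyrophosphate from ribose 5-phosphate, was lowered at -0.66 ± 0.0059 (SD over n = 2 arrays, limma adjusted p = 0.000112).

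Among the genes of these other lists that lay short of the threshold, changes went both ways. Of the 46 tested, 13 (28.3%) were higher and 16 (34.8%) lower at an adjusted limma p under 0.05 and any fold. Those shares stand against 30.6% and 23.7% of all tested genes. The genes named next were picked after their values were seen, and all are positive. *Mpc1* and *Mpc2*, the mitochondrial pyruvate carrier genes, were at 0.55 and 0.37, with adjusted p of 0.00032 and 0.00101 by limma. The 7 tested genes of their list had a median of -0.105, with 2 higher and 3 lower at an adjusted limma p under 0.05. *Tigar*, a known p53 target whose product lowers fructose 2,6-bisphosphate, was at 0.53, with 0.51 and 0.56 on the arrays (limma adjusted p = 0.000242).

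A list of 15 other HIF-responsive genes, 13 of them tested, was called in both directions. Called lowered were *Egln3*, a prolyl hydroxylase that marks HIF for degradation, at -1.19 (replicates -1.01 and -1.38), *Bnip3*, a mitophagy receptor, at -1.11 (replicates -1.04 and -1.18) and *Ankrd37* at -0.93 (replicates -0.85 and -1.01). Called raised were *P4ha2*, a collagen prolyl hydroxylase, at 0.64 and *Ndrg1* at 0.63. That is 3 of 13 lowered (23.1%, against 0.791% of all tested genes) and 2 of 13 raised (15.4%, against 5.52%), with a median of -0.19. Collagen genes are among the fibroblast and endoderm markers that were raised, and how far those cells account for *P4ha2* was not tested.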

How the data were processed

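The members and gene lists were chosen with earlier results of these data known. The authors deposited the scanner output of Agilent Feature Extraction (11.5.1.1 per the file headers, though the methods give a different release), with the intensity of each spot and its local background in both channels, processed signals, and a log10 ratio. A table of log2 ratios, normalized in GeneSpring, was deposited too. Its columns equalled the log2 ratio of the processed signals plus a constant (0.0404 and 0.0395) within 0.01 for 99.7% of 55681 probes, so that its direction and scale are known, while the reason for its centring (column medians 0.0909 and 0.111) is not. All sample columns were used (0 left out).

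Median signals were corrected with limma's normexp (offset 50) and loess within each array, control spots were given weight 0 and then dropped, and outlier spots (215 and 227) were left out. Repeat spots were averaged. A probe was tested where each array had Cy3 or Cy5 well above background, which held for 33012 of 55681 probes. The brightest probe stood for a gene. Signals over background had medians of 2.68 to 3.31, and the number of arrays (2, on 1 slide) limits the precision. Normalized signals are the channel values after loess. Probes were named by unversioned accession through RefSeq genes of GRCm38.p6, and 14972 tested genes had a symbol. Coordinates are given for the RefSeq promoter windows only, and none for probes, since the array's design used a different build.

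The mean log2 ratio was tested against 0 with lmFit and eBayes (limma 3.58.1, R 4.3.3), with 1 residual and 5.25 prior degrees of freedom after loess. With median centring the fit gave the members a common standard error, so that limma p-values there follow the ratio alone. The steps were tested on simulated data. All 44 members may be named, those past the thresholds and the highest and lowest of each class are given in full, and of the other lists those past the thresholds are named. *Tigar*, *Mpc1*, *Mpc2*, *Fn1* and *Dppa5a* were named after their values were seen. The alternatives were no background subtraction, processed signals, median centring, other filters on dim probes, a mean over probes, the deposited table, the methods' t-test, other thresholds, and each replicate left out. Motifs were searched on both strands.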

Additional observations from a re-analysis of the deposited data

How the results depend on the processing

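Without background subtraction and with other filters on dim probes, all 44 members kept their direction and call. Members called raised numbered 1 with the processed signals, 8 with median centring, 1 with the mean of probes, 0 at 2-fold and 11 at an adjusted p under 0.05 and any fold, against 2. Members called lowered numbered 0 with median centring, 3 with the mean of probes (not *Pfkp*, -0.44), 0 at 2-fold and 20 at an adjusted p, against 4. The methods' t-test called 2 raised and 3 lowered (not *Pfkp*), and after Benjamini-Hochberg adjustment it called 0 and 0 and also lost *Eef1e1* (-0.90). The deposited table called 2 raised, *Pfkfb3* and *Pfkfb4* (0.59), but not *Slc2a1*. The class medians were, with the processed signals, -0.21 (glucose uptake and glycolysis), -0.24 (pyruvate dehydrogenase) and -0.25 (pentose phosphate pathway), and -0.20 for pyruvate dehydrogenase in the deposited table. With median centring they were 0.21, 0.094 and 0.097, and 0.34 for the citrate cycle. With 1 array left there is no p, and by fold alone leaving out either replicate gave 2 to 3 members raised, 3 to 5 lowered, and pyruvate dehydrogenase medians of -0.13 to -0.089.

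Median centring moved the median of all genes to 0.18. Signs against 0 turned there for *Slc16a3* (0.039), *Hk2* (0.076), *Gpi1* (0.24), *Pfkm* (0.033), *Aldoa* (0.22), *Pgk1* (0.090), *Pgam1* (0.31), *Eno3* (0.15), *Pkm* (0.18), *Ldha* (0.25), *Pdha1* (0.094), *Dlat* (0.15), *Taldo1* (0.36), *Idh1* (0.13) and *Idh3a* (0.18), of which 10 of 15 stayed below the median of all genes and *Aldoa*, *Gpi1*, *Ldha*, *Pgam1* and *Taldo1* lay above it. They turned with the mean of probes for *Gapdh* (-0.037) and *Pdhb* (-0.032), and for *Eno1* with the processed signals (-0.087) and the deposited table (-0.047). Leaving out 1 replicate turned *Pfkfb2* (-0.083 to 0.23), *Dlat* (-0.073 to 0.0018), *Idh1* (-0.093 to 0.0064), *Idh2* (-0.023 to 0.046), *Ogdh* (-0.025 to 0.082) and *Pgd* (-0.016 to 0.12). By fold alone, *Pfkp* was under 1.5-fold without replicate 2 (-0.50), and *Pfkfb4* (0.62) and *Tkt* (-0.61) were past it without replicate 1. The causes were not tested. No paired analysis was possible because both replicates were set against the same control pool.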
